A study of Mus musculus with 6 samples.

Results

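Basal interfollicular keratinocytes are the innermost cells of the epidermis between the hair follicles. The cells described here were chosen by measured UMI counts (UMIs are unique molecular identifiers, 1 per captured transcript). A cell was taken as basal if Krt5 and Krt14 together gave at least 10 UMIs and more than Krt1, Krt10 and Krtdap together, and if Col17a1, Itga6 and Itgb4 together gave at least 2. It had to have no Sox9 UMI, under 2 UMIs of Krt79 and Defb6, under 2 of Nppb, under 2 of Epgn, under 3 of Mki67, Top2a and Cdk1, and under 5 of Col1a1, Col1a2, Col3a1 and Dcn. Of 34834 cells kept from 36542 barcodes, 5875 met all of these conditions, which is 16.9%. The 20 genes of the rule chose the cells, so their values are given only as a description.

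The epidermis renews itself from the basal layer, whose cells divide, stay fixed to the basement membrane by hemidesmosomes and integrins, and then move up and switch from Krt5 and Krt14 to Krt1 and Krt10. Basal cells also act as sentinels: they carry sensors of microbes and damage, release alarm cytokines such as TSLP, and answer interferons by switching on a large set of antiviral genes. Osmotic and oxidative stress are met by separate programmes, the first led by the transcription factor NFAT5 and the second by NRF2.

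The skin came from the back of male wild-type C57BL/6 mice aged 8, 26 or 52 weeks. For every age there was 1 library of untreated skin, dissociated directly, and 1 of skin treated outside the body with PBMC-sec, the secretome of gamma-irradiated mononuclear blood cells. Each of the 6 libraries pooled 3 animals. Treated skin was held ex vivo and untreated skin was not, so the effects of PBMC-sec and of holding cannot be told apart, and the dose and length of treatment are not given in the sources used here. The series title asks about changes of skin macrophages with age; the epidermal cells were captured because whole skin was dissociated. Values for the untreated or for the treated libraries are given in the order 8, 26 and 52 weeks throughout.

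The untreated libraries held 1829, 1365 and 485 basal cells and the treated ones 1087, 850 and 259. Their summed counts ran from 1625354 UMIs in the 52-week treated library to 6106428 in the 8-week untreated one. The median basal cell held 2158, 3465 and 4896 UMIs in untreated and 3851, 5119.5 and 5333 in treated skin, so treated cells were deeper at every age. In the 8-week untreated library 3312 barcodes (35.9% of its kept cells) had near-identical profiles, and 570 of its basal cells (31.2%) were among them. The only other library with such barcodes was 52-week treated skin, with 38, none of them a basal cell. Basal cells of different libraries had 15 barcode sequences in common, at most 4 for a pair of libraries. Cells near the cutoff were most frequent in the shallow 8-week untreated library, where 474 cells had 10 to 14 Krt5 and Krt14 UMIs and 819 cells missed the rule only by having 5 to 9. For the hemidesmosome genes, 267 cells of that library had exactly 2 UMIs and 294 missed the rule only by having 1.

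Markers of other cell types were present at varied levels in the basal cells. The 7 hair follicle genes summed to 1332, 1552 and 875 CPM in untreated and 641, 1719 and 1036 in treated libraries, nearly all of it Krt17, which activated interfollicular epidermis also makes. Sox9 was at 0 by the rule, and Lhx2, Lgr5 and Krt75 were at 0 in at least 1 library. The 5 suprabasal genes, 3 of them in the rule, summed to between 1009 and 1960 CPM and the 3 sebocyte genes to between 73.0 and 212. The summed level of 6 fibroblast genes (4 of them in the rule) was 71.7, 29.2 and 75.8 CPM, normalised counts per 1000000 UMIs of the basal cells, in untreated and 20.4, 17.2 and 22.8 in treated libraries. Macrophage genes summed to 8.09, 9.20 and 8.21 CPM in untreated libraries and to 2.19, 4.70 and 128 in treated ones. The 52-week treated library thus stood apart for these genes, although C1qa and C1qb were at 0 in at least 1 library. The 3 neutrophil genes S100a8, S100a9 and Retnlg, the first pair of which keratinocytes also make, summed to 260, 320 and 210 CPM in untreated and 138, 70.9 and 100 in treated skin, with Retnlg at 0 throughout. Endothelial genes stayed at or under 10.6 CPM and melanocyte genes at or under 2.64. The 4 Langerhans cell genes ran from 151 to 407 CPM and the 4 T cell genes from 0.274 to 17.1. A gene is called prone to free RNA below where its level in all other cells of a library exceeded 5 times that in the basal cells.

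By the rule's own genes, Col17a1 (collagen XVII of the hemidesmosome) gave a UMI in 85.3% to 99.0% of basal cells per library, and in 24.3% to 46.6% of all other cells, which include follicle cells. Itga6, the integrin alpha6 chain, did so in 77.4% to 92.2% of basal and 24.9% to 38.0% of other cells. Genes that the rule did not use were ranked against suprabasal cells alone. That ranking bears on the layer and not on the interfollicular part of the label. Suprabasal keratinocytes of the same libraries, chosen by at least 10 UMIs of Krt1, Krt10 and Krtdap and at least as many as of Krt5 and Krt14 (1762 cells), served for the comparison of levels. Among the 15 genes with the highest median ratio of basal to suprabasal level were Thbs2, Jag2, Itga3, Fcgbp, Lamb3, Nrg1, Itgb1, Htra1, Mmp3, Sparc, Col18a1, Ephx1, Wnt10a and Cbr2. Several are textbook parts of the basal cell's contact with the basement membrane: Itga3 and Itgb1 form the laminin-binding integrin alpha3 beta1, Lamb3 encodes a laminin chain, and Col18a1 is a basement membrane collagen. Itga3 was at 262, 285 and 297 CPM in untreated and 334, 313 and 409 in treated basal cells, against 20.4, 10.7 and 18.6 and then 4.63, 3.36 and 4.09 in suprabasal cells. Lamb3 was at 244, 241 and 290 CPM in untreated and 288, 223 and 255 in treated basal cells. The median log2 ratio was 5.35 for Itga3, 4.94 for Lamb3, 5.54 for Jag2, a Notch ligand, and 4.35 for Wnt10a, a Wnt ligand. These ratios are a description of cells sorted by related genes, with no test.

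Basal cells made up 19.8% (95% exact interval 19.0 to 20.6), 24.5% and 13.2% of kept cells in untreated libraries and 19.9%, 14.3% and 5.23% in treated ones. The mean log2 ratio of treated to untreated was −0.70 ± 0.67 (SD, n = 3 ages; exact two-sided permutation test p = 0.5, where 3 pairs cannot go below 0.25). The ages differed, with log2 ratios of 0.01, −0.77 and −1.33. The limits on Nppb, a natriuretic peptide, and Epgn, the EGF-family ligand epigen, moved with treatment. They left out 7.93%, 10.8% and 17.1% of the cells that had met the conditions listed before them in untreated libraries and 35.1%, 51.2% and 66.9% in treated ones. Treated basal cells as defined here are therefore the ones with little Nppb and Epgn RNA. When these limits were lifted, an alternative chosen after seeing the data, the share was 21.4%, 27.5% and 15.9% in untreated and 29.9%, 28.9% and 15.9% in treated skin, and the mean log2 ratio turned to 0.18 ± 0.26 (SD, n = 3; exact permutation p = 0.5). With 3 pairs no change of share could have passed a threshold of 0.05.

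**Figure D1:**
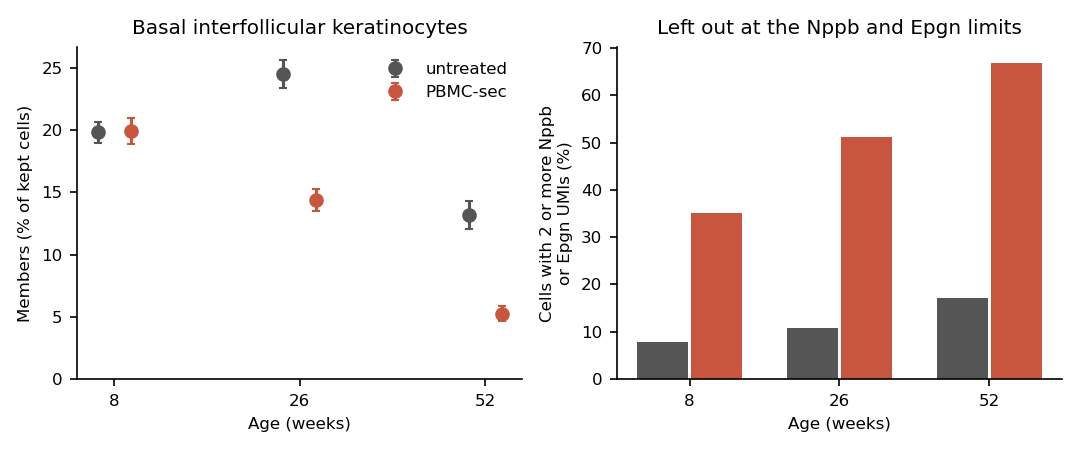
Left, basal interfollicular keratinocytes as a percent of kept cells by age, with 95% exact binomial intervals that cover counting error only; right, percent of the cells that had met the earlier conditions left out by the Nppb and Epgn limits. The treated share falls from 19.9% to 5.23% with age, and the share left out is higher in the treated library at each age.

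Many genes of the basal cells differed between treated and untreated skin on average over the 3 ages. The test does not require the same sign at each age. Among 10974 genes outside the rule, 431 were higher (3.93%) and 416 lower (3.79%) in PBMC-sec skin, with an adjusted p under 0.05 in edgeR's quasi-likelihood test on summed counts with age as a factor; the median log2 change of all genes was −0.01. Among the lower genes were 20 of the interferon response, 5 of antigen presentation and the gap junction genes Gjb2 and Gjb6. Among the higher genes were 5 of the osmotic stress list, 7 NRF2 targets, Tslp, Ptgs2 and Procr. The fit has 2 residual degrees of freedom, and its p-values measure how the treatment difference varied between ages, not between animals. Without the Nppb and Epgn limits 2042 genes were called, among them 806 of these 847. Without the 26-week libraries 277 genes were called, among them 254 of these 847. Scaling by total counts alone moved the median of all genes to −0.18 and the split to 183 higher and 433 lower.

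The interferon response fell as a group. Of its 24 listed genes 22 were tested and 20 were lower in treated skin, none higher, with a median log2 change of −1.98 and a negative sign for all 22. The within-age medians were −2.40, −1.09 and −1.90. Of the 20 genes, 14 were prone to free RNA; Stat2, Irf9, Parp14, Ifi35 and Xaf1 were not. Removing the 8-week libraries left 9 of 20 tested genes called, removing the 26-week ones 19, and DESeq2 called 17 of 24. Over all genes, 3.79% were lower in the main fit. Without the 8-week libraries 210 of all 10267 genes were lower, without the 26-week ones 145 of 10440, and with DESeq2 187.

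Stat2, a transcription factor of the type I interferon response, was at 45.4, 25.8 and 66.5 CPM in untreated and 22.4, 19.2 and 19.8 in treated cells, and fell by 0.99 ± 0.22 on the log2 scale (SE, adjusted p = 0.026, edgeR). Irf9, which binds DNA together with STAT2, fell by 1.0 ± 0.17 (adjusted p = 0.010), from 38.6, 27.1 and 39.7 CPM to 21.7, 14.5 and 14.4. For Stat2 and Irf9 the treated libraries all lay below the untreated ones.

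Interferon-induced genes fell as well. Isg15, a ubiquitin-like protein made in response to interferon (chr4:156199424-156200818, minus strand), was at 138, 32.2 and 97.4 CPM in untreated and 17.5, 10.2 and 21.3 in treated cells, a log2 change of −2.34 ± 0.24 (adjusted p = 0.0012, edgeR). Its level in all other cells was 499, 439 and 490 CPM in untreated and 126, 85.2 and 322 in treated libraries, so it also fell outside the basal cells, and the part of free RNA in its change was not tested. Parp14, an ADP-ribosyltransferase not prone to free RNA, fell by 2.24 ± 0.26 (adjusted p = 0.0020), from 28.8, 14.9 and 20.5 CPM to 4.19, 4.09 and 6.08. The treated libraries were low for both genes at all ages and overlapped with no untreated library. Irf1 and Ifi27l2a did not pass the test, and the log2 change of Irf1 was −0.26 ± 0.25. Which type of interferon the fall goes with was not tested.

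**Figure D2:**
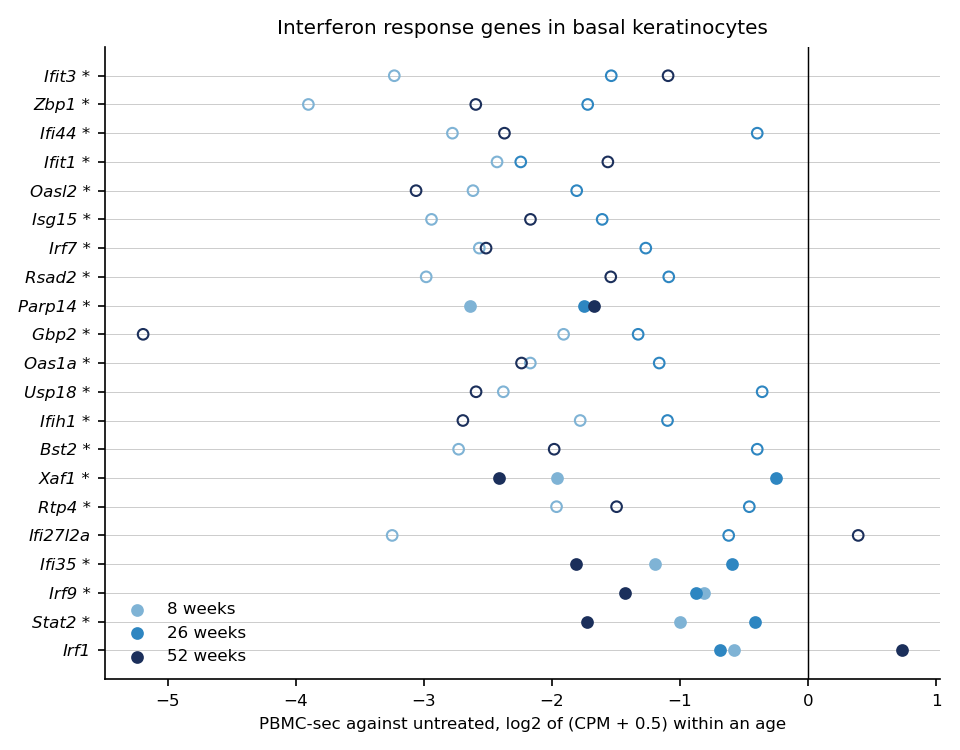
Log2 ratio of treated to untreated level of 21 of the interferon response genes in basal cells, 1 point per age; open points mark genes prone to free RNA and asterisks an adjusted p under 0.05 in edgeR's test. 19 genes carry an asterisk, and only Irf1 and Ifi27l2a, which do not, have a point right of 0, at 52 weeks.

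The share of cells with interferon response UMIs was also compared at equal depth. The rule was applied anew to the thinned counts, so the cells are not the same set: there were 1123, 1129 and 404 untreated and 1078, 830 and 275 treated basal cells. After each cell was thinned to 1500 UMIs, 70.5% (95% exact interval 67.8 to 73.2) of untreated basal cells at 8 weeks held at least 1 UMI of the 24 genes, and 33.0% (30.2 to 35.9) of treated ones did. At 26 weeks the shares were 52.3% (49.4 to 55.3) and 25.4% (22.5 to 28.5), and at 52 weeks 62.4% (57.5 to 67.1) and 24.7% (19.7 to 30.3). The treated share was thus the lower one at each age. Without the near-identical barcodes the 8-week untreated share was 68.4%. In suprabasal cells it was 50%, 39.0% and 43.0% in untreated and 21.2%, 16.4% and 12.1% in treated skin. In cells with a fibroblast profile it was 94.3%, 72.9% and 84.3% and then 61.7%, 44.1% and 72.0%. The share was thus lower in treated skin in these classes too. Of the 22 genes tested in basal cells, 15 were prone to free RNA, and the part of free RNA in these shares was not tested.

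Promoters of some interferon genes are shown as a description. The genes were listed for their response to interferon, so how often they hold the element follows in part from that choice. Whether the element is frequent among all lower genes was not tested. Within 250 bases before to 50 after the start, 9 of 18 matched genes of the list (50%) held the interferon-stimulated response element GAAANNGAAA on either strand, compared with 1079 of all 27025 genes (3.99%). The following stretches are from RefSeq on GRCm38.p6, written 5′ to 3′ on the gene's strand, with the matches in capitals; a match on the opposite strand starts with TTTC.
Isg15, chr4:156200860-156200911, minus strand: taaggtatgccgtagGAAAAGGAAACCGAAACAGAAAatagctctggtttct
Ifit1, chr19:34640770-34640828, plus strand: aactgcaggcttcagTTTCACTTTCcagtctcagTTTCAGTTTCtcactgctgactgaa
Gbp2, chr3:142620589-142620628, plus strand: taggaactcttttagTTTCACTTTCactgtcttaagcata
Rsad2, chr12:26456548-26456587, minus strand: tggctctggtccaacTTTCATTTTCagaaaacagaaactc
Oas1a, chr5:120907526-120907560, minus strand: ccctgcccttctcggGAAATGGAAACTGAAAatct
Isg15 held 3 overlapping matches and Ifit1 and Oas1a 2 each. All 5 genes were lower in treated cells, with log2 changes of −2.34 for Isg15, −2.73 for Ifit1, −2.09 for Gbp2, −2.24 for Rsad2 and −2.08 for Oas1a. All 5 were prone to free RNA. A match is a description of letters, not a measured binding site.

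Of 15 antigen presentation genes tested, 5 fell (3.79% of all genes were lower): Tap1, Tap2, Psmb8, Psmb9 and H2-Ab1, the last prone to free RNA. All 15 had negative changes, with a median of −0.44, and 10 did not pass the test. Tap1 and Tap2 form the pump that loads peptides onto class I molecules, and Psmb8 and Psmb9 are subunits of the immunoproteasome. The 4 genes lie next to each other in the class II region of the mouse MHC on chromosome 17. Tap2 (chr17:34203527-34216321, plus strand) was at 80.2, 82.9 and 76.9 CPM in untreated and 28.4, 35.4 and 38.0 in treated cells. Its groups were far apart, with a log2 change of −1.27 ± 0.15 (adjusted p = 0.0023, edgeR). Psmb9 fell by 1.22 ± 0.21 (adjusted p = 0.010), from 79.1, 73.6 and 73.6 CPM to 25.9, 48.0 and 24.3. The heavy chain gene H2-K1 did not pass the test, at 1797, 2149 and 2462 CPM in untreated and 1340, 1640 and 1726 in treated cells, and neither did B2m.

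Of 12 osmotic stress genes tested, 5 were higher (3.93% of all genes were), none was lower and 7 did not pass the test. The median change was 0.53. That median was 0.18 after thinning, 0.29 without the 8-week and 0.27 without the 52-week libraries. Over the 14 listed genes together, the mean UMIs per thinned basal cell were 5.07, 5.30 and 5.48 in untreated and 6.80, 4.92 and 3.77 in treated skin. The sum was thus higher in treated cells at 8 weeks and lower at 26 and 52 weeks. Akr1b3, the aldose reductase that makes the osmolyte sorbitol (chr6:34302434-34317478, minus strand), was at 23, 26.8 and 19.4 CPM in untreated and 420, 317 and 272 in treated basal cells. The treated libraries were all above the untreated ones by more than 10 times, and the log2 change of 3.85 ± 0.18 (adjusted p = 3.8e-05, edgeR) held under all 14 alternatives. Hspa4l, a chaperone of the Hsp110 family known to rise in hypertonic cells, rose by 1.38 ± 0.15 (adjusted p = 0.0013), from 108, 124 and 98.0 CPM to 288, 290 and 282. Sgk1, a kinase that raises sodium transport, was at 19.3, 17.0 and 30.6 CPM in untreated and 65.7, 42.7 and 60.1 in treated cells. It rose by 1.38 ± 0.18 (adjusted p = 0.0029). Akr1b8, next to Akr1b3 on chromosome 6, rose by 0.81 ± 0.15, and Fxyd2, which is prone to free RNA and under 10 CPM throughout, was also called.

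Of 22 NRF2 targets tested, 7 rose (3.93% of all genes were higher) and none fell. The median change was 0.50, with negative values for 2. Without the Nppb and Epgn limits 13 were higher (1093 of all 11510 genes were). Without the 8-week libraries 4 were (249 of all 10267 genes), and without the 26-week libraries 2 (132 of all 10440 genes). The list medians without these libraries were 0.51 and 0.46. Nqo1, a quinone reductase, was at 51.5, 97.0 and 41.9 CPM in untreated and 142, 216 and 96.5 in treated cells. The 26-week untreated level barely exceeded the 52-week treated one, so the groups overlapped although each age moved up. It rose by 1.28 ± 0.14 (adjusted p = 0.0019, edgeR). Gclc and Gclm encode the catalytic and the modifier subunit of the enzyme that starts glutathione synthesis. Gclc rose by 0.95 ± 0.15 (adjusted p = 0.0068), from 27.4, 40.7 and 40.0 CPM to 44.5, 83.4 and 87.4. Gclm rose by 0.65 ± 0.16 (adjusted p = 0.039), from 126, 123 and 71.1 CPM to 181, 240 and 95. The thioredoxin gene Txn1, the glutathione transferase gene Gstp1, and Srxn1 and Ftl1, both prone to free RNA, completed the 7.

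Gclm is shown for the element linked to NRF2, TGACNNNGC on either strand. It was found in the promoters of 7 of 17 matched NRF2 target genes (41.2%) and of 3781 of 27025 genes (14%). Of those 7 genes Gclm and Srxn1 passed the treatment test, and Prdx1, Pgd, Me1, Txnrd1 and G6pdx did not. The match in Gclm lies on the opposite strand and is in capitals.
Gclm, chr3:122245408-122245446, plus strand: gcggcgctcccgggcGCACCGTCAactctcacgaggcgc

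**Figure D3:**
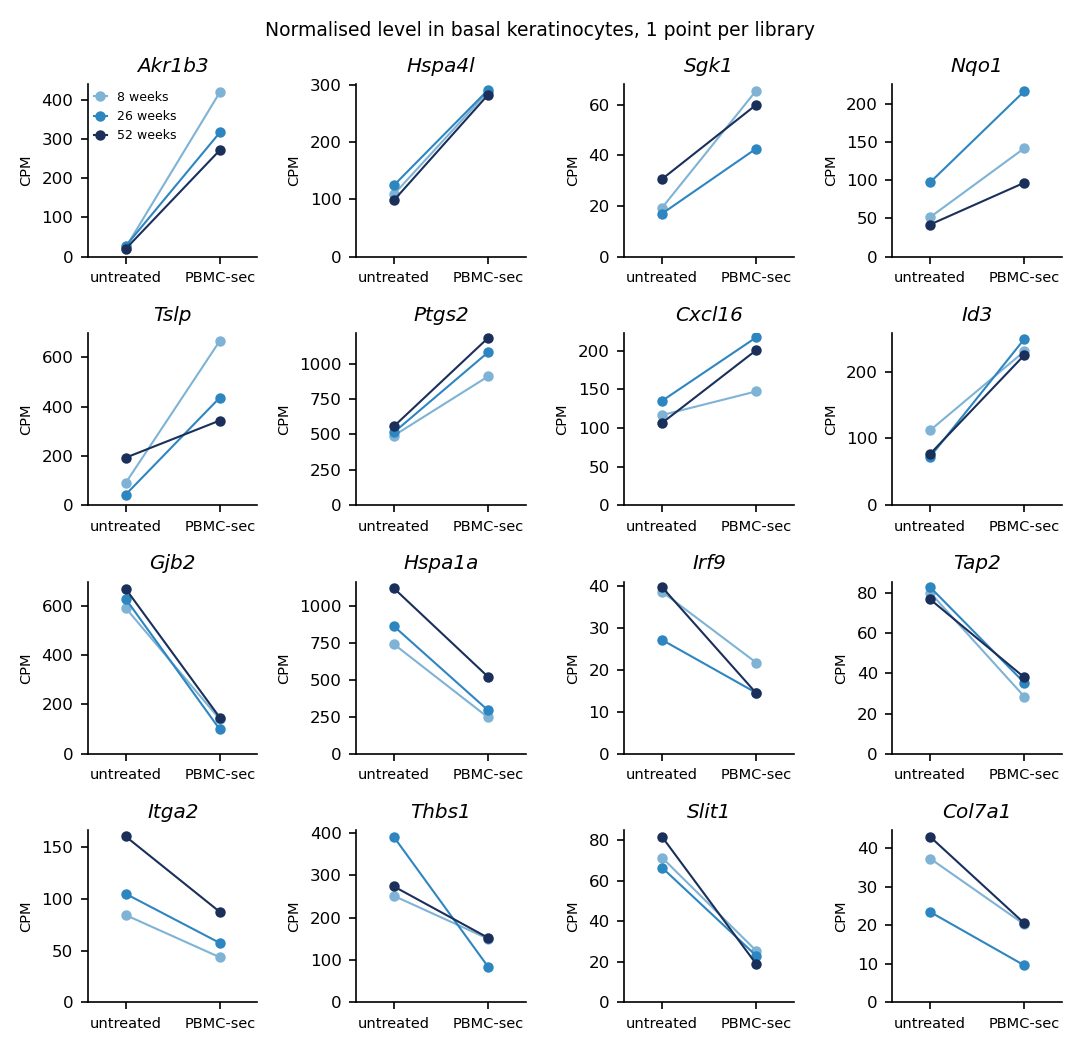
Normalised level (CPM, linear axes from 0) of 16 genes in basal cells, with a line from the untreated to the treated library of each age. Akr1b3, Hspa4l, Sgk1, Nqo1, Tslp, Ptgs2, Cxcl16 and Id3 rise along every line, and Gjb2, Hspa1a, Irf9, Tap2, Itga2, Thbs1, Slit1 and Col7a1 fall along every line.

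Of 24 wound-activated genes tested, 4 were higher and 6 lower, and the median was −0.09. Of all genes 3.93% were higher and 3.79% lower. The keratins of the activated epidermis did not pass the test. Krt6a was at 1422, 1610 and 2002 CPM in untreated and 1642, 1750 and 1873 in treated cells, a log2 change of 0.08 ± 0.21. Krt16 changed by 0.20 ± 0.20 and Krt17 by −0.23 ± 0.27, both with an adjusted p above 0.5 in edgeR's test. Krt16 was at 1623, 1486 and 1757 CPM in untreated and 1805, 1722 and 2078 in treated cells. Krt6b, prone to free RNA, was at 514, 422 and 527 CPM in untreated and 544, 281 and 61.6 in treated cells, a log2 change of −1.06 ± 0.48 (adjusted p = 0.215, edgeR). Its treated levels spread widely, and the lowest was at 52 weeks. After thinning, 28.9%, 19.0% and 21.3% of untreated and 17.1%, 8.19% and 4.73% of treated basal cells held a Krt6b UMI, a lower share in treated skin at each age. In cells with a fibroblast profile it was 13.6%, 12.8% and 13.4% and then 17.4%, 6.99% and 1.86%. The treated basal shares at 8 and 26 weeks were thus near those of fibroblasts, and the part of free RNA was not tested.

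The gap junction genes of the list fell. Gjb2, which encodes connexin 26 (chr14:57098600-57104702, minus strand), was at 591, 628 and 669 CPM in untreated and 140, 98.7 and 147 in treated basal cells. There was a wide gap between the groups, and the log2 change was −2.31 ± 0.18 (adjusted p = 0.00045, edgeR). Its neighbour Gjb6, which encodes connexin 30, fell by 4.0 ± 0.27 (adjusted p = 0.00022), from 35.6, 32.0 and 40.5 CPM to 2.92, 1.84 and 0.760, and is prone to free RNA. Both calls held under all 14 alternatives. Lcn2, S100a8 and S100a9, secreted antimicrobial proteins, and Tnc, a matrix glycoprotein, were the other 4 lower genes, all prone to free RNA. The first 3 are also neutrophil products. In all other cells S100a8, S100a9 and Retnlg summed to 964, 1078 and 480 CPM in untreated and 353, 241 and 681 in treated libraries. The part of free RNA in the changes of these genes was not tested. On the other side Sprr1b, a cornified envelope precursor prone to free RNA, rose by 2.76 ± 0.26, and Plau, Mmp10 and Flrt2 rose by 0.92, 0.75 and 0.97.

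Of 17 hemidesmosome and basement membrane genes tested outside the rule, 3 fell and none rose, beside 3.79% of all genes lower. The median was −0.26, and within ages it was −0.01, −0.38 and −0.50, so it was near 0 at 8 weeks. Itga2, the collagen-binding integrin chain, was at 84.4, 105 and 160 CPM in untreated and 43.6, 57.4 and 87.4 in treated cells. Treated levels were lower at each age but overall levels were higher in older skin, so the groups overlapped; the log2 change was −0.90 ± 0.14 (adjusted p = 0.0059, edgeR). Without the Nppb and Epgn limits that change was −0.41 with an adjusted p of 0.088. Col7a1, the anchoring fibril collagen, fell by 1.06 ± 0.16 (adjusted p = 0.0066), from 37.3, 23.5 and 43.0 CPM to 20.2, 9.61 and 20.5. Frem2, a basement membrane protein under 4 CPM, was the third. The rule gene Col17a1 stood at 2325, 2633 and 1694 CPM in untreated and 1214, 964 and 883 in treated cells, and Itgb4 at 495, 620 and 590 and then 423, 314 and 291. Itga6, also in the rule, stood at 778, 770 and 927 and then 967, 643 and 674, so it was higher in treated cells at 8 weeks. As genes of the rule they are given without a test.

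Cytokine genes were mixed, with 4 higher and 1 lower among 27 tested and a median of −0.08. Of all genes 3.93% were higher and 3.79% lower. Tslp, the alarm cytokine that primes dendritic cells and innate lymphocytes, was at 90.0, 42.6 and 193 CPM in untreated and 667, 437 and 344 in treated basal cells. The rise was steep at 8 and 26 weeks and small at 52 weeks, and the groups did not overlap. The log2 change was 2.39 ± 0.42 (adjusted p = 0.011, edgeR). Ptgs2, the inducible cyclooxygenase of prostaglandin synthesis (chr1:150100031-150108227, plus strand), was at 491, 514 and 556 CPM in untreated and 909, 1079 and 1180 in treated cells. It rose by 1.01 ± 0.18 (adjusted p = 0.011), although without the 26-week libraries the adjusted p was 0.18. The prostaglandin carrier Slco2a1 went the other way, from 102, 109 and 72.5 CPM to 30.5, 29.4 and 30.4, and fell by 1.67 ± 0.16 (adjusted p = 0.0010). Cxcl16, a transmembrane chemokine, rose by 0.64 ± 0.16, and Cxcl3 rose by 0.69 while Csf1 fell by 0.58, both prone to free RNA. Cxcl3 passed the test under 5 of 14 alternatives and Csf1 under 7.

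Heat shock genes split. Hspa1a and Hspa1b, neighbouring and near-identical Hsp70 genes whose reads cannot be told apart with certainty, fell by 1.42 ± 0.19 (adjusted p = 0.0032, edgeR) and 1.22 ± 0.17 (adjusted p = 0.0044). Hspa1a was at 740, 861 and 1118 CPM in untreated and 246, 294 and 520 in treated cells, with no overlap. Hsph1 rose by 0.87 ± 0.14, and so did Cryab, by 2.86 ± 0.17, a small heat shock protein prone to free RNA. These were 2 higher and 2 lower of 14 tested, with a median of 0.06, beside 3.93% of all genes higher and 3.79% lower.

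Of 20 genes of the TGF-beta and BMP pathways, 3 were higher and 2 lower, with a median of 0.02. Of all genes 3.93% were higher and 3.79% lower. Without the 26-week libraries 1 of 20 was higher and 0 lower (132 and 145 of all 10440 genes). The 3 higher genes of the main fit were Id1, Id2 and Id3, direct targets of BMP signalling that block differentiation factors. Id3 was at 112, 72.6 and 76.9 CPM in untreated and 231, 249 and 225 in treated cells, with a log2 change of 1.45 ± 0.17 (adjusted p = 0.0023, edgeR). The treated levels were close to each other and all above the untreated ones. Id1 rose by 1.06 ± 0.17 and Id2 by 0.74 ± 0.18. The receptor gene Tgfbr1 fell by 0.89 ± 0.17 and Ltbp3, which binds latent TGF-beta, fell by 0.79 ± 0.18.

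The other lists held at most 4 calls each, to be read beside 3.93% of all genes higher and 3.79% lower. Among p53 and senescence genes 3 of 19 were higher (Bax, Zmat3 and Btg1), among clock genes 2 of 16 (Nr1d1 and Nr1d2, repressors of the clock), and among immediate early genes 2 of 24 (Ier3 and Btg2). EGF receptor ligands and targets gave 2 of 16 higher, Phlda1 and Ier3, and 8 without the Epgn and Nppb limits, where 1093 of all 11510 genes were higher. Of 20 desmosome and adherens junction list members Cldn1 and Cldn4 rose, both tight junction genes and Cldn4 prone to free RNA. Matrix and protease genes gave 2 of 24 higher, Plau and Mmp10, and 2 lower, Thbs1 and Serpinb1a. Wnt and stem cell genes gave Sostdc1 higher and Fzd10 and Slc1a3 lower of 14, and basal lineage factors gave Grhl3 higher of 10. Glycolysis and hypoxia genes gave Ankrd37 higher and Ero1l lower of 23, and the unfolded protein response gave Trib3 lower of 20, shares near those of all genes. In early differentiation, Lor rose and Tgm3 fell of 16, both prone to free RNA, and Tgm3 turned to a positive change without the Nppb and Epgn limits.

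No gene passed the test in edgeR's fit among 9 Notch, 21 cholesterol and fatty acid synthesis, 7 metallothionein and zinc, 18 oxidative phosphorylation and 18 ribosomal protein genes. DESeq2 called 1 metallothionein and zinc gene lower and 1 oxidative phosphorylation gene higher, and none of the other 3 lists. The ribosomal protein genes had a median of 0.46, but it was −0.02 at 8 weeks, 0.24 at 26 weeks and 1.22 at 52 weeks, so the libraries differed in it from age to age.

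Several genes with the largest changes were in none of the gene lists used here, which do not hold every gene of a programme. Gpx2, the glutathione peroxidase of epithelia, was at 4.35, 38.2 and 3.01 CPM in untreated and 42.5, 227 and 44.1 in treated cells, a rise of 3.01 ± 0.23 (adjusted p = 0.00040, edgeR). The 26-week libraries were highest in each arm, yet no untreated library reached a treated one. Procr, the endothelial protein C receptor, rose by 1.60 ± 0.15 (adjusted p = 0.0010), from 129, 116 and 184 CPM to 372, 329 and 635. Cbr2, a carbonyl reductase, rose by 1.68 ± 0.18 (adjusted p = 0.0012), from 169, 197 and 91.7 CPM to 684, 529 and 274. Rrad, a small GTPase, the matrix gene Tnxb, Hs3st1, a heparan sulfate sulfotransferase, the ubiquitin ligase gene Rnf19b, the thymidine kinase gene Tk1 and Calm5 rose by 1.51 to 2.0. After thinning the change of Calm5 was 0.57 with an adjusted p of 0.106. On the falling side were Slit1, a guidance ligand (−1.65 ± 0.16), Lgals9, which encodes galectin-9 (−1.61 ± 0.16), the chitinase gene Chit1 (−1.57 ± 0.30), Espn, an actin bundling protein (−1.53 ± 0.14), the glycogen synthase gene Gys1 (−1.43 ± 0.18), the kinase gene Taok2 (−1.42 ± 0.17) and Moxd1 (−1.29 ± 0.23).

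Suprabasal cells of the same libraries, fitted alone, had 447 of 8413 genes higher (5.31%) and 159 lower (1.89%). A test of the difference itself called 120 of 10479 genes (1.15%) with a higher change in basal cells and 333 (3.18%) with a lower one. Akr1b3 rose in both layers but less in basal cells: suprabasal levels were 16.2, 20.3 and 9.63 CPM in untreated and 1553, 1172 and 2169 in treated libraries, and the difference of the log2 changes was −2.78 ± 0.31 (adjusted p = 7.9e-05, edgeR). Gjb2 fell in basal cells and did not pass the test in suprabasal ones, where levels were 751, 979 and 1088 CPM in untreated and 922, 755 and 863 in treated libraries, and the changes differed by −2.18 ± 0.23 (adjusted p = 3.8e-05). The suprabasal groups overlapped for Gjb2 and the basal ones did not.

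Sprr2h, a small proline-rich protein, was at 388, 421 and 1314 CPM in untreated and 476, 718 and 1111 in treated basal cells, and went from 627, 806 and 1377 to 3940, 6042 and 15904 in suprabasal cells. Basal groups overlapped and suprabasal ones did not (difference −2.75 ± 0.31, adjusted p = 7.9e-05, edgeR). Blmh, the protease bleomycin hydrolase, and Hnrnph3, an RNA-binding protein, differed in the same direction, by −2.02 and −2.20. Differences in the other direction included Itga3 (difference 2.31 ± 0.34, adjusted p = 0.00098). In suprabasal cells it went from 20.4, 10.7 and 18.6 CPM to 4.63, 3.36 and 4.09, far below the treated basal cells. In basal cells Itga3 did not pass the test. The hemidesmosome and basement membrane list had a median change of −1.27 over 11 genes tested in suprabasal cells and −0.26 over 17 in basal cells. For 15 of its genes the difference itself was tested. The median was 0.76, and 2 were called with a higher change in basal cells (1.15% of all genes were). Krt5 was lower in treated suprabasal cells at each age, while Krt14 and Lor were higher. Krt5 and Krt14 helped to choose the suprabasal cells, so their levels are only a description. Whether the suprabasal class held other cells after treatment was not tested. Without the Nppb and Epgn limits the Itga3 difference was 0.96 with an adjusted p of 0.087, and after thinning 1.36 with 0.257. Gpx2 rose in basal cells and not detectably in suprabasal ones, where it was at 2.81, 73.7 and 12.8 CPM and then 2.78, 110 and 5.11 (difference 2.70 ± 0.41, adjusted p = 0.0011). After thinning, Hnrnph3 also lost its call, at −1.57 with an adjusted p of 0.0934. For interferon response genes the difference was called for 2 of 22, Isg15 and Rsad2.

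**Figure D4:**
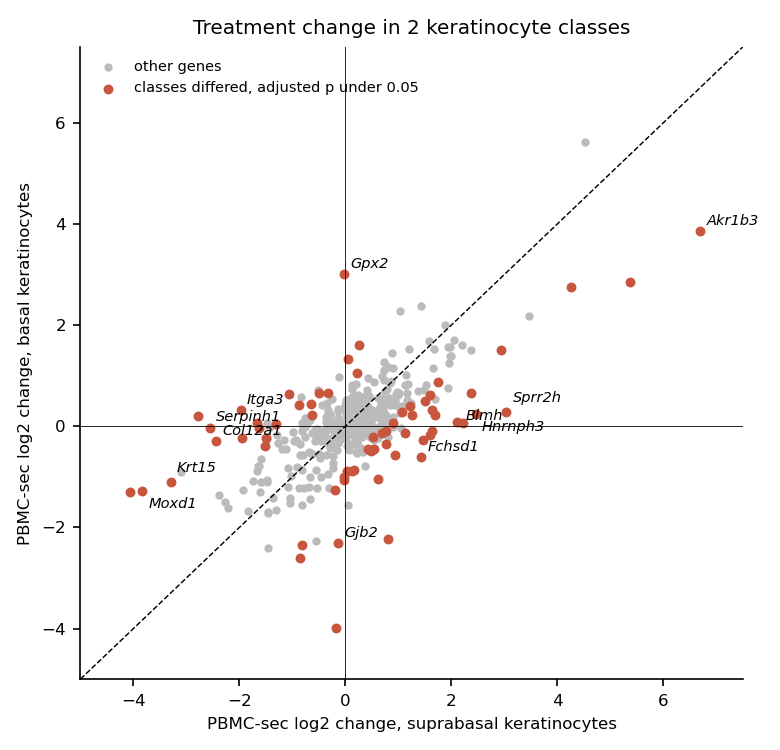
Log2 change with PBMC-sec in suprabasal (x) and basal (y) keratinocytes for 430 genes that were named or listed and tested in both; red marks 67 whose changes differed between the classes, and the dashed line is equality. Akr1b3 lies far to the right below the line, Gjb2 lies low near 0 on x, and Gpx2 lies high near 0 on x.

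Follicle keratinocytes with at least 2 Sox9 UMIs were few, 563 cells. Alone they had 3 of 5961 genes higher (0.0503%) and 15 lower (0.252%). The test of the difference called 84 of 9111 genes (0.922%) with a higher change in basal cells and 24 (0.263%) with a lower one. Hs3st1 was at 22.2, 13.5 and 23.8 CPM in untreated and 32.6, 73.0 and 82.1 in treated basal cells, and at 24.2, 76.8 and 61.0 and then 19.8, 9.20 and 40.1 in follicle cells (difference 2.75 ± 0.50, adjusted p = 0.0020, edgeR). Il1f9, which encodes an IL-36 cytokine, rose in basal cells by 1.26 ± 0.17 and differed from the follicle by 2.58 ± 0.40 (adjusted p = 0.00027). Thbs1, a matrix glycoprotein, fell in basal cells from 252, 391 and 274 CPM to 151, 84.6 and 153, while the follicle levels were 1038, 435 and 375 and then 1682, 490 and 674 (difference −1.81 ± 0.24, adjusted p = 3.3e-05). After thinning to 1500 UMIs per cell none of the 12 named differences from the follicle passed the test. In both classes the counted cells are those left by the same Nppb and Epgn limits.

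Age changed few genes by the same fit. Comparing 52 with 8 weeks, 8 of 10974 genes were higher (0.0729%) and 3 lower (0.0273%), and 2106 had an unadjusted p under 0.05. Lce1a1, Lce1m and Crct1, late differentiation genes that were lower at 52 weeks, and Ccl3, Ccl4, Cxcl3 and Cd14, higher, were all prone to free RNA. Cnn3, the actin-binding protein calponin 3, was at 17.9, 26.6 and 55.5 CPM in untreated and 15.1, 18 and 72.2 in treated cells. The 52-week libraries stood above the other 4, and the log2 change was 1.92 ± 0.24 (adjusted p = 0.019, edgeR). Rbbp6, a p53- and RB-binding ubiquitin ligase, was at 46.6, 53.3 and 104 CPM in untreated and 36.3, 41.3 and 100.3 in treated cells, a change of 1.30 ± 0.18 (adjusted p = 0.036). The 52-week libraries were again above the other 4. After thinning the change of Cnn3 was 1.53 with an adjusted p of 0.0579, and with scaling by total counts that of Rbbp6 was 1.17 with 0.0671. Thinning called 15 age genes, of which 1 was among the 11. Fgfbp3 and the predicted gene Gm26532 were the other 2 not prone to free RNA. The libraries of an age may come from the same animals, which the labels do not say, so the age test may rest on 1 pool per age.

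The near-identical barcodes bear on age, since they lie in the 8-week untreated library. Without them 105 genes were called, 67 higher and 38 lower at 52 weeks, including all 11 above, and 26 of the 105 were prone to free RNA. Several of the 105 have main adjusted p-values just above the threshold. Emp1, an epithelial membrane protein, was at 284, 305 and 599.6 CPM in untreated and 316, 321 and 623 in treated cells with these barcodes removed (log2 change 1.09 ± 0.19, adjusted p = 0.035; 0.056 with them, edgeR). Inhba, which encodes the activin A subunit, went from 32.0 CPM at 8 weeks to 61.2 at 52 in untreated and from 24.9 to 77.3 in treated cells (1.32 ± 0.22, adjusted p = 0.035). Thbs2, the gene with the highest ratio to suprabasal cells, went from 236 to 70.7 CPM in untreated and from 369 to 151 in treated cells (−1.44 ± 0.22, adjusted p = 0.035; 0.056 with them). These 3 were chosen after their values were seen. None of the 25 gene lists held more than 1 gene called with age in the fit on all members.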

How the data were processed

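Single-cell RNA was captured with a Chromium Single Cell 3′ v3.1 kit, per the labels' protocols. The authors deposited raw UMI counts per gene and barcode, made with Cell Ranger 5.0.1 per the file headers, on mm10 (GRCm38) per the submitters' processing notes; the sources used here name no annotation release. Gene positions are from GENCODE M21. The members, gene lists and tests were chosen with earlier results of these data known.

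Cells needed 500 UMIs, 300 genes and at most 10% mitochondrial UMIs. Raw counts were summed per library and class and tested with edgeR 4.0.16 (R 4.3.3; TMM scaling, quasi-likelihood test, terms for age and treatment, Benjamini-Hochberg adjustment over all tested genes). Age pairs the treated and the untreated library, so the age term is the pairing. DESeq2 1.42.0 was an alternative. Differences between cell classes were interaction terms in fits over both classes, and those p-values also treat classes of 1 library as separate samples. The scripts were tested on simulated data.

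Genes named by rule had an adjusted p under 0.05, the same sign at every age, at least 50 CPM in the higher group and no proneness to free RNA; the 12 largest changes in each direction were taken. From each list, up to 6 called members and the 3 of highest level were added, and for differences between classes the 6 largest in each direction. Other called list members are named for completeness. Near-identical barcodes were clusters (Leiden resolution 5) of at least 10 barcodes with a Pearson dispersion of at most 2 on genes averaging at least 2 UMIs. Scrublet's automatic step gave 0 doublets in every library, where 0 can also mean that it set no threshold. None were removed in the main fit, and an alternative removed 0.8% per 1000 barcodes by score. 1 listed symbol was not analysed here, and a few genes are counted but not reported by name. Intervals cover counting error only.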

Additional observations from a re-analysis of the deposited data

Results flagged for a closer look

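In 24 genes the change with PBMC-sec differed between basal cells and another keratinocyte class by the test of the difference itself (edgeR's interaction term). Against suprabasal cells the log2 difference was positive for Gpx2 (2.70), Serpinh1 (2.63), Moxd1 (2.48), Krt15 (2.41), Itga3 (2.31) and Col12a1 (2.13). It was negative for Akr1b3 (−2.78), Sprr2h (−2.75), Hnrnph3 (−2.20), Gjb2 (−2.18), Fchsd1 (−2.03) and Blmh (−2.02). After thinning to 1500 UMIs, Serpinh1, Itga3, Col12a1, Hnrnph3 and Fchsd1 lost their call. Serpinh1, Moxd1 and Col12a1 lost it without the 8-week libraries, and Krt15 and Itga3 without the Nppb and Epgn limits. Serpinh1 is a collagen chaperone and Col12a1 a fibril-associated collagen. A positive difference is not by itself a rise in basal cells, where Moxd1 fell and Itga3 did not pass the test. Krt15, a keratin of basal and bulge cells, stood at 368, 230 and 80.2 CPM in untreated and 95.6, 57.6 and 154 in treated basal cells.

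Against follicle cells the log2 difference was positive for Hs3st1 (2.75), Il1f9 (2.58), Crabp2 (2.30), Klk11 (2.26), Sult2b1 (2.20) and Teddm3 (2.09). It was negative for Clca3a2 (−3.06), Serpinb1a (−1.94), Gadd45g (−1.84), Thbs1 (−1.81), Id2 (−1.75) and Ddit3 (−1.70). After thinning all 12 lost their call. Crabp2, which carries retinoic acid, was at 57.8, 79.3 and 50.6 CPM in untreated and 68.8, 95.2 and 37.2 in treated basal cells, and went from 252, 415 and 267 to 41.8, 50.6 and 106 in follicle cells.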

How the results depend on the processing

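The 847 treatment calls became 1544 with no filter on low counts, 228 with no age term (no pairing), 434 with DESeq2, 2042 without the Nppb and Epgn limits, and 277 to 1327 when 1 age was left out. The 11 age calls became 23 with scaling by total counts, 792 with no filter, 105 without near-identical barcodes, 84 without doublets, 218 under a stricter rule, 278 without the Nppb and Epgn limits, 114 with DESeq2, 15 after thinning (1 of them among the 11), and 79 without the 26-week libraries. With no treatment term edgeR called 0 (1050 at an unadjusted p under 0.05), and 26 against 8 weeks gave 4. Differences from suprabasal cells, 453 in the report, numbered 136 without the 8-week, 798 without the 52-week libraries and 204 after thinning. Differences from the follicle, 108 in the report, ran from 101 to 164 when 1 age was left out, and were 35 after thinning and 214 without the Nppb and Epgn limits. The mean log2 ratio of the basal share turned to 0.18 without those limits. Tgm3 turned positive, at 0.20 after thinning and 0.45 without the limits.

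Of 1199 values of the 86 named treatment genes under 14 alternatives, 1035 kept sign and call, 162 kept the sign only and 2, both of Tgm3, turned. The call was lost for 38 genes without the 26-week and 23 without the 8-week libraries, and for 49 with no age term. The cause was not tested. With 1 pool of animals per library, 259 basal cells in the smallest library and 2 residual degrees of freedom, small changes were not detectable. The alternative without the Nppb and Epgn limits was chosen after seeing the data.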
